A study of Mus musculus with 4 samples.

Results

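Microfold mimetic mTECs, medullary thymic epithelial cells (mTECs) that transcribe genes of the gut microfold cell, were examined in 4 droplet single-cell libraries of sorted thymic epithelium. Members were chosen by measured UMI counts: a cell was taken when at least 4 of 7 genes (Gp2, Ccl20, Spib, Ccl9, Tnfaip2, Ccl6 and Serpinb6a) had at least 1 UMI (unique molecular identifier, 1 counted mRNA molecule) and Gp2, Ccl20, Ccl9 and Ccl6 together made up at least 10 of every 10000 UMIs of the cell. Before the rule, cells under 200 genes or over 25% mitochondrial UMIs were dropped. It found 729 members among 28055 cells, of which 397 came from WT-Control, 72 from WT-RANKL-Ab, 259 from Cd40-/- Control and 1 from Cd40-/- RANKL-Ab.

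Each library was made from the pooled thymi of 3 mice of the C57BL/6 strain at 6 weeks of age. WT-Control mice were wild type and had received control IgG, WT-RANKL-Ab mice were wild type and had received a neutralizing antibody against RANKL at 5 mg per kg, and Cd40-/- Control and Cd40-/- RANKL-Ab mice lacked Cd40 in every cell and had received the IgG or the antibody. Injections were given 2 weeks before the cells were sorted as EPCAM+ CD45- TER119-. With 1 library per condition there is no replicate of a condition, so differences between conditions are given with intervals that cover counting error only. Because mice were pooled, the spread between mice cannot be seen.

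Microfold (M) cells sit in the epithelium over gut lymphoid follicles and carry particles from the lumen to the immune cells below. In the gut their formation requires RANKL, its receptor RANK (Tnfrsf11a) and the transcription factor Spi-B (Spib). A later step needs Sox8, and the surface protein GP2, which binds bacteria, marks the mature cell. In the thymus, RANKL and CD40 ligand act on mTECs largely through NF-kB, and some mTECs that have passed through an Aire-expressing stage take on programs of cells from other tissues and are called mimetic cells. The question of the design was how blocking RANKL, losing CD40, or both changed the cells that remained.

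The transcription start regions of the rule genes are shown because these genes define the cells. In RefSeq annotation on GRCm38.p6, 7 of 7 rule genes matched a promoter entry, giving 8 promoters. The 250 bases before the start were searched on both strands for 2 motifs. The first was GAGGAA (reverse complement TTCCTC), the core bound by ETS factors of the Spi-B kind. The second was 1 form of the NF-kB motif, GGGAN directly followed by TTTCC, with N for any base. Capitals mark matches to the first motif. The Ccl20 sequence spans chr1:83116516-83116765 on the plus strand, that of Gp2 chr7:119459273-119459522 on the minus strand and that of Spib chr7:44532072-44532321 on the minus strand.
Ccl20: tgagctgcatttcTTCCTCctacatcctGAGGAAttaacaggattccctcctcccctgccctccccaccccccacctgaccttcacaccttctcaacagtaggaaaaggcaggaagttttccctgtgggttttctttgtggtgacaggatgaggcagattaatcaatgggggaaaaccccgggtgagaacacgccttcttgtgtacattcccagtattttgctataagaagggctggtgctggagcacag
Gp2: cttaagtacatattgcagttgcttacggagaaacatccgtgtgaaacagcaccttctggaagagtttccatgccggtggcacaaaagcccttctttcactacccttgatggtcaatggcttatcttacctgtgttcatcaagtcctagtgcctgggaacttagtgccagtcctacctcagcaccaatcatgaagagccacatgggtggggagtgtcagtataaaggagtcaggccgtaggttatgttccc
Spib: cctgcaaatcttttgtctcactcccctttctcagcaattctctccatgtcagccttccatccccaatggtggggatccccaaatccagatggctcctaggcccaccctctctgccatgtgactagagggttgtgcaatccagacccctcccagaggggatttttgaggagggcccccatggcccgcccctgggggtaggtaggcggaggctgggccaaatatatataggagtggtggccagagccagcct
GAGGAA was found in 1 of the 8 promoters, that of Ccl20, with 2 matches whose first bases lay at positions -237 and -222 from the start. Of all 32851 promoters searched in the same way, 23.3% held this motif. This form of the NF-kB motif was found in 0 of the 8 and in 0.356% of all promoters. Other forms of NF-kB site were not searched, so a count of 0 does not mean that a promoter lacks one. A match describes letters in this window and not a bound site.

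By GENCODE M21 on GRCm38, Gp2 lies on chr7:119442537-119459285 and Ccl20 on chr1:83116766-83119167. Spib lies on chr7:44525993-44532071, Ccl9 on chr11:83572919-83578636 and Ccl6, its neighbour on the same strand, on chr11:83587882-83593087.

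The 4 libraries held 10218, 7164, 8591 and 2082 cells after the filters (in the order of the conditions above, used throughout), with 95277834, 48640841, 66295255 and 19153685 UMIs and median depths of 7621.5, 6086, 6267 and 7531.5 UMIs per cell. Pairs of libraries shared from 17 to 205 cell barcodes, and 17 members had a barcode that also occurred in another library, 0 of them that of another member. Cd40 itself stood at 117 CPM (UMIs of the gene per 1000000 UMIs, both summed over the members of a library) in WT-Control members (445 UMIs) and at 1.20 CPM (2 UMIs) in those of Cd40-/- Control, and at 201 and 6.41 CPM in Aire-positive mTECs of the same libraries, so the targeted gene went with the labels.

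Microfold mimetic mTECs made up 3.89% of WT-Control cells, with an exact (Clopper-Pearson) 95% binomial interval of 3.52 to 4.28%. With the antibody the share was 1.01% (0.787 to 1.26%), without Cd40 it was 3.01% (2.66 to 3.40%), and with both it was 0.0480% (0.00122 to 0.267%). Against WT-Control, the log2 ratio of the shares was -1.95 (95% interval -2.33 to -1.59) with the antibody, -0.37 (-0.60 to -0.14) without Cd40 and -6.34 (-11.6 to -3.85) with both. The interval of the Cd40-/- Control ratio reached 0 when members needed at least 5 rule genes (-0.22, -0.49 to 0.05) and when every cell was thinned to 3000 UMIs before the rule was applied (-0.23, -0.54 to 0.08). It also reached 0 when only members without a UMI of a thymocyte, myeloid, dendritic cell or B cell marker were counted (-0.10, -0.60 to 0.40). Within the Cd40-/- background, the antibody library stood at -5.97 (-11.3 to -3.48) against its control. The share of cTECs in the same denominators was 2.29% in WT-Control, 13% with the antibody, 13.7% without Cd40 and 29.2% with both. With cTECs taken out of the denominator, which was tried only once the data had been seen, the ratios were -1.78 (-2.17 to -1.42) with the antibody, -0.19 (-0.42 to 0.04) without Cd40 and -5.87 (-11.2 to -3.39) with both, so the interval without Cd40 reached 0 here too. These are shares of sorted cells, not cell numbers per thymus, and intervals do not cover differences between mice.

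**Figure D1:**
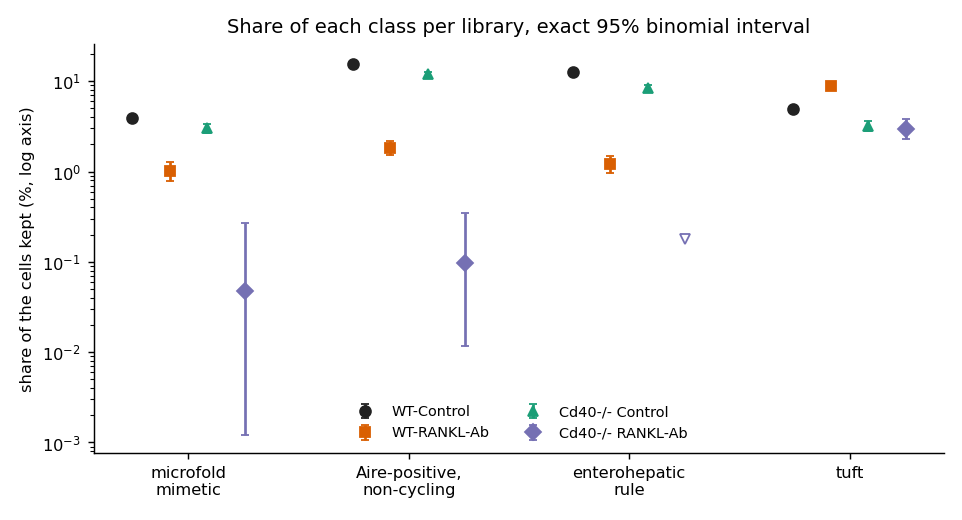
Share of 4 cell classes in each library, on a log axis in percent of the cells kept, with exact 95% binomial intervals; the open triangle marks the upper limit of 0.177% for 0 of 2082 cells meeting the enterohepatic rule. Microfold mimetic mTECs were at 3.89% in WT-Control, 1.01% in WT-RANKL-Ab and 0.0480% in Cd40-/- RANKL-Ab, while tuft cells lay between 2.98 and 8.81%.

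With the antibody the members stood closer to their WT-Control share than the Aire-positive mTECs did to theirs. Non-cycling Aire-positive mTECs (at least 2 Aire UMIs, under 20 Ccl21a UMIs per 10000, under 2 of 6 mitotic genes, no mimetic rule met) made up 15.4, 1.83, 11.9 and 0.0961% of the 4 libraries, which gave log2 ratios to WT-Control of -3.07, -0.36 and -7.32. Of the cells in either class, members were 20.2% (18.4 to 22.0%) in WT-Control, 35.5% (28.9 to 42.5%) after the antibody and 20.2% (18.0 to 22.5%) without Cd40. The log2 ratio of that proportion to WT-Control was 0.81 (0.43 to 1.18) with the antibody and -0.00 (-0.23 to 0.23) without Cd40. In Cd40-/- RANKL-Ab 1 of the 3 cells was a member, a share with an interval of 0.840 to 90.6%.

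Among other mimetic types, cells that met the rule for enterohepatic genes (at least 3 genes of a list that includes Apoa4, Reg3g, Saa1, Saa3, Fabp1, Muc13 and Spink1) but not the microfold rule stood at a log2 ratio of -3.40 to WT-Control in WT-RANKL-Ab, with 1299, 86, 727 and 0 cells. Thymic tuft cells, chemosensory cells that need Pou2f3, were not lower with the antibody in wild type, where their share was 8.81% beside 4.91% with IgG (log2 ratio 0.84). In the Cd40-/- background the share was 3.20% with IgG and 2.98% with the antibody. These classes share a denominator with the members, so their shares are not independent of each other.

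The rule genes are given as a description, since they chose the cells. Gp2 stood at 1287, 1567 and 1628 CPM in the 3 libraries other than Cd40-/- RANKL-Ab. Ccl20, the chemokine that draws CCR6-bearing lymphocytes, stood at 6449, 4151 and 6564 CPM, and Spib at 528, 423 and 490 CPM. Ccl20 and Spib were lowest, and Gp2 was not, in WT-RANKL-Ab.

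The myeloid-attracting chemokines Ccl9 and Ccl6 stood at 2156, 2677 and 2243 CPM and at 1590, 2371 and 1807 CPM. Tnfaip2, a TNF-induced gene that gut M cells express, stood at 311, 317 and 441 CPM. Serpinb6a, a protease inhibitor with a near-identical neighbour family whose reads may be split in counting, stood at 4424, 5867 and 7255 CPM. The level of Serpinb6a was thus highest in Cd40-/- Control, where the Aire-positive class also stood above WT-Control (log2 ratio 0.68, against 0.71 in the members).

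**Figure D2:**
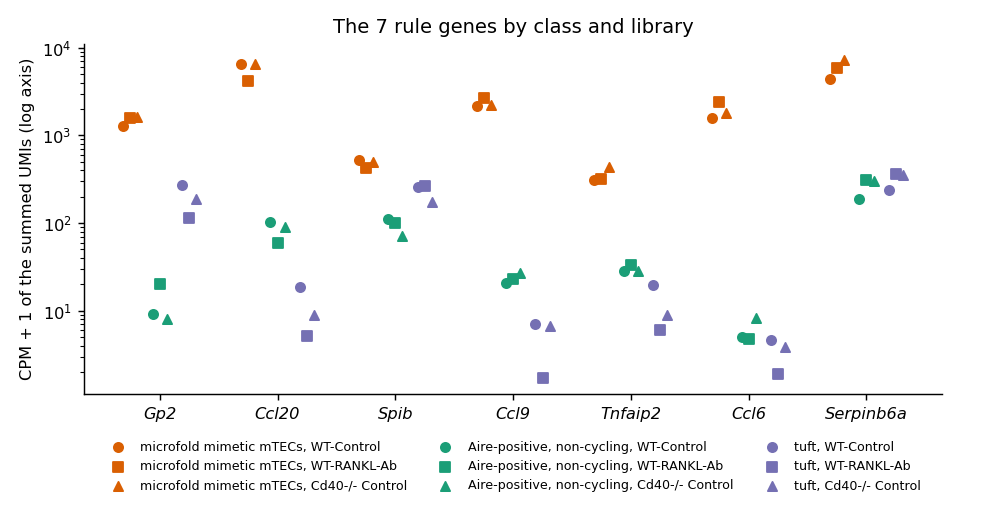
Summed level of the 7 rule genes (CPM plus 1, log axis) in microfold mimetic mTECs, non-cycling Aire-positive mTECs and tuft cells of the 3 libraries that held them; each point is 1 library and class. The members lay above both classes for every gene, which a choice of cells by these genes favours. The gap to the tuft cells was smallest for Spib.

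In Gp2 and Ccl20, cells just inside the rule were close to those just outside it. The 213 members with 4 rule genes had 491 CPM of Gp2 and 2234 CPM of Ccl20, and the 296 cells with 3 rule genes, left outside, had 576 and 2091 CPM. The other rule genes stood higher inside, with Spib at 160 against 132 CPM and Ccl9 at 950 against 550 CPM. Tnfaip2 stood at 101 against 39.6, Ccl6 at 327 against 145 and Serpinb6a at 810 against 470 CPM. At the other edge, 28 members had 10 to 12 UMIs per 10000 of the summed markers and 27 cells with enough rule genes had 8 to 10. The 198 members with all 7 genes had 3402 CPM of Gp2 and 11096 CPM of Ccl20, at a median depth of 7898.5 UMIs against 6714 for those with 4. Among the 4 to 7 genes, the groups held 213, 143, 175 and 198 members.

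Genes that the rule did not read were graded in the same way. Sox8 stood at 21.1 CPM in members with 4 rule genes and at 39.4, 130 and 225 CPM in members with 5, 6 and 7, and Pglyrp1, which encodes an antibacterial peptidoglycan-binding protein, at 1556, 2289, 8604 and 9188 CPM. Aire, which drives ectopic expression of tissue genes in mTECs, ran the other way, from 277 and 268 CPM with 4 and 5 genes to 152 and 93.9 CPM with 6 and 7. In the cells with 3 rule genes, outside the rule, Sox8 stood at 16.5, Pglyrp1 at 675 and Aire at 259 CPM. These levels were summed over all 4 libraries and have no test.

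**Figure D3:**
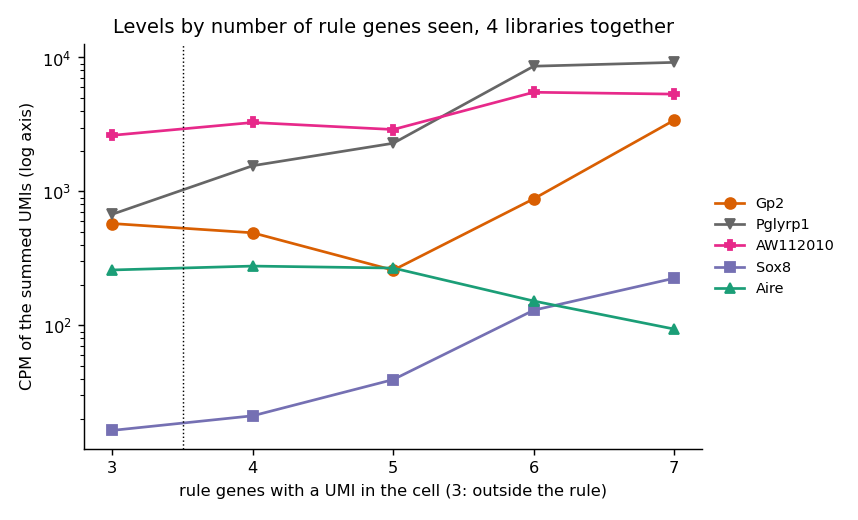
Summed levels (CPM, log axis) of 5 genes by the number of rule genes seen in a cell, with the 4 libraries together; the dotted line is the edge of the rule. Sox8 and Pglyrp1, which the rule did not use, were highest at 6 and 7 genes, and Aire was lowest at 7.

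In single droplets, free RNA can put a UMI into a cell that does not express the gene, so the share of cells with a UMI was set beside cortical thymic epithelial cells (cTECs), after thinning every cell to 1000 UMIs. Gp2 was seen in 36.8% of 682 thinned members (47 shallower members were left out), in 0.850% of Aire-positive mTECs, in 8.81% of tuft cells and in 0 of 2825 cTECs, which allows up to 0.130%. Before thinning the shares were 51.7, 3.89, 17.7 and 0.509%, at median depths of 6953, 10827.5, 6408 and 9747 UMIs. Sox8 was seen in 12.3% of the thinned members, 0.296% of Aire-positive mTECs and 0 of 2825 cTECs (34.8, 3.52 and 0.407% before thinning). The share of Gp2 in members is shaped by the rule. Sox8, which the rule did not use, was seen in members above the level in cTECs and Aire-positive mTECs.

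Spib was spread more widely. It was seen in 39.4% of the thinned members, 22.5% of tuft cells, 8.39% of Aire-positive mTECs and 1.06% of cTECs (78.2, 73.5, 51.1 and 7.16% before thinning). Ccl20 was seen in 76.5% of members and in 0.839% of tuft cells (91.6 and 4.08% before thinning). Both are rule genes, so their shares in members describe the choice of cells.

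Most members also carried genes of other programs. Of the 729, 470 (64.5%) also met the enterohepatic rule, 28 (3.84%) the keratinocyte rule, 21 (2.88%) the tuft rule, and 30 (4.12%) were cycling. The overlap with the enterohepatic rule was 67.3, 43.1 and 66.0% in the 3 libraries, whose members had median depths of 7998, 4758 and 6086 UMIs. Members that met it had a median of 7629 UMIs and those that did not 5302, so the overlap moved with depth, and the part of depth in it was not tested.

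Signs of other lineages were looked at because they bear on every level below. At least 1 UMI of a thymocyte, myeloid, dendritic cell or B cell marker was present in 565 members (77.5%), mostly of Lyz2, a lysozyme gene of macrophages and neutrophils. Summed over the list, myeloid markers stood at 1102, 642 and 948 CPM in the members and at 1026, 547 and 1099 CPM in Aire-positive mTECs, and thymocyte markers at 41.3, 75.3 and 176 against 73.3, 43.3 and 81.7 CPM. At least 3 thymocyte markers were present in 13 members. In the comparison with Aire-positive mTECs, 0 of 7 thymocyte and 0 of 10 myeloid markers tested differed at an adjusted p under 0.05, and 1 dendritic (Flt3) and 1 B cell marker (Pax5) were lower. Of the epithelial markers, Epcam stood at 1234, 1085 and 1245 CPM and Krt8 at 1630, 1747 and 1350 CPM in the members.

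Members were next compared with Aire-positive mTECs, from which mimetic cells are thought to arise, to see which M cell and mTEC genes outside the rule set them apart. UMIs were summed per library and class over the 3 libraries with at least 10 cells of both, and tested with edgeR's quasi-likelihood test with the library as a block. The p-values therefore measure how constant a difference was across 3 libraries of different condition, and not across mice. Cells that met the enterohepatic rule were kept out of the Aire-positive class, while 64.5% of all members met it. This choice of classes favours, in the members, genes that go with that rule. Counts without those members are given below. Of 12123 genes tested, 1829 (15.1%) were higher and 1574 (13%) lower in the members at a Benjamini-Hochberg adjusted p under 0.05, and the median log2 fold change of all genes was -0.04.

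M cell genes outside the rule stood higher. Of 22 listed, 18 were higher, 1 was lower and 3 did not pass, with a median log2 fold change of 1.79. Sox8 stood at 92.9, 104 and 146 CPM in the members against 3.31, 3.80 and 3.95 CPM (log2 fold change 4.99 ± 0.19 SE, edgeR adjusted p = 0.000118). Pglyrp1 stood at 5158, 4448 and 6535 against 176, 115 and 207 CPM (5.04 ± 0.14, edgeR adjusted p = 6.93e-05). For both genes every summed member value lay above every summed Aire-positive value, which does not describe overlap between single cells.

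The interferon-inducible transcript AW112010 stood at 4021, 5333 and 4624 against 398, 786 and 442 CPM (log2 fold change 3.17 ± 0.19). Clu, a secreted chaperone, stood at 1501, 1512 and 1560 against 208, 250 and 205 CPM (2.80 ± 0.14). Aif1 (3.08), a gene better known from macrophages, the serine protease inhibitor gene Serpinb1a (3.45), and Bcl2a1a (3.42), an anti-apoptotic gene with near-identical copies between which reads may be split, were higher as well. Cxcl16, a membrane-bound chemokine, stood at 198, 328 and 217 against 63.4, 105 and 55.2 CPM (1.76 ± 0.14).

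Smaller differences were found for Fabp5 (1.06), Anxa5 (0.95), Marcksl1 (0.86) and Rac2 (0.63), and Esrrg, a nuclear receptor gene active upstream of Sox8 in gut M cells, was called at 1.21 ± 0.34. Cyba was lower (-0.43), and Psca (-1.43), Prnp (-0.08) and Ubd (-0.03) did not pass. Without WT-Control, Anxa5, Rac2, Cyba and Esrrg no longer passed (adjusted p 0.0718, 0.0884, 0.171 and 0.124). Without Cd40-/- Control, Rac2, Cyba, Esrrg and Umod did not (0.059, 0.069, 0.209 and 0.0696), and without WT-RANKL-Ab Cyba and Esrrg did not (0.0833 and 0.0793).

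Of the listed receptors and adaptors through which RANKL, CD40 ligand and lymphotoxin act, 4 of 11 were higher and 1 was lower. The decoy receptor gene Tnfrsf11b is not in this list and is given beside it. Tnfrsf11b, encoding osteoprotegerin, the soluble decoy that captures RANKL, stood at 368, 166 and 522 CPM in the members and at 108, 52.4 and 136 CPM in the Aire-positive class (log2 fold change 1.81 ± 0.13, edgeR adjusted p = 0.000825). It was higher in the members in 3 of 3 libraries, and its level in WT-RANKL-Ab was the lowest of the 3 in both classes. Tnfrsf11a, encoding RANK itself, stood at 175, 179 and 234 against 105, 124 and 120 CPM (0.76 ± 0.14, edgeR adjusted p = 0.0130). The call of Tnfrsf11a was lost without WT-Control (0.0627), without Cd40-/- Control (0.0679) and without the members that met the enterohepatic rule (0.177), and with only members that had no UMI of another lineage its log2 fold change was 0.14 (0.818).

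Ltbr, the lymphotoxin beta receptor, stood at 27.1, 35.4 and 20.3 against 8.18, 11.4 and 6.12 CPM (log2 fold change 1.72 ± 0.21). Tnfrsf1a (1.38), a TNF receptor, and the adaptor Traf1 (0.87) were higher, Traf1 not without WT-Control (adjusted p 0.0555) or Cd40-/- Control (0.0752). Cd40 was lower, at 117, 33.2 and 1.20 against 201, 150 and 6.41 CPM (-1.35 ± 0.32, edgeR adjusted p = 0.0258). In the third of these libraries the gene is deleted, and without WT-RANKL-Ab the call of Cd40 was lost (-0.87, adjusted p 0.0534). With the members that met the enterohepatic rule left out, 0 of the 9 listed receptors and adaptors that could still be tested passed in either direction. This count does not cover Tnfrsf11b.

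Among 12 NF-kB subunits and feedback targets, 3 were higher and 1 was lower, and the median was 0.04. Tnfaip3, encoding the deubiquitinase A20 that restrains NF-kB, stood at 28.4, 42.1 and 68.1 against 5.91, 9.11 and 7.79 CPM (log2 fold change 2.63 ± 0.26). Nfkbiz stood at 22.9, 37.6 and 64.0 against 6.50, 8.35 and 12.7 CPM (2.11 ± 0.20), and Bcl3 (0.85, not without WT-Control, adjusted p 0.0888) was also higher. Nfkbie (-0.99) was lower. The subunits of the non-canonical pathway that RANK engages did not pass, with Relb at 201, 208 and 201 against 253, 265 and 268 CPM (adjusted p = 0.0559) and Nfkb2 at 123, 95.2 and 91.5 against 144, 110 and 125 CPM.

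Genes of MHC class II presentation were lower in the members. Of 11 listed, 10 were lower and 0 higher, with a median of -0.77. Ciita, the master regulator of class II genes, stood at 75.8, 44.3 and 65.2 against 176, 260 and 160 CPM (log2 fold change -1.55 ± 0.27, edgeR adjusted p = 0.00991). H2-Aa, the class II alpha chain, stood at 7337, 5254 and 6815 against 10677, 12637 and 9796 CPM (-0.77 ± 0.20, edgeR adjusted p = 0.0318), and the members were below the Aire-positive class in every library. The count was 5 without WT-Control, 6 without WT-RANKL-Ab, 4 with no library block and 10 without Cd40-/- Control. The abundant chains H2-Aa, H2-Ab1 and H2-Eb1 were not called without WT-Control (adjusted p 0.0811, 0.0789 and 0.0845) or without WT-RANKL-Ab (0.0592, 0.058 and 0.0582), and were called without Cd40-/- Control (0.0137, 0.0153 and 0.0163).

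Of 6 costimulatory and checkpoint ligands tested, 0 were higher and 1 was lower. Icosl stood at 31.6, 13.3 and 33.5 against 105, 73.6 and 102 CPM (log2 fold change -1.77 ± 0.19). Of 15 other chemokines, 1 was higher (Cx3cl1, 1.06) and 4 were lower (Cxcl10, Ccl25, Ccl19 and Ccl17). Cxcl10, an interferon-induced chemokine, stood at 524, 266 and 267 against 974, 1423 and 1004 CPM (-1.71 ± 0.30), and Ccl25, which recruits thymic progenitors, had a log2 fold change of -1.70 ± 0.49. The call of Cx3cl1 was lost without WT-Control (adjusted p 0.246) and without Cd40-/- Control (0.0919).

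Aire was used to define the comparison class and is given as a level only. It stood at 220, 66.4 and 170 CPM in the members and at 761, 619 and 820 CPM in the Aire-positive class, and was seen in 31.4% of members. Of 6 partner regulators, Fezf2, Irf8 and Irf4 were lower and 0 higher. Fezf2, which drives a set of tissue genes apart from those of Aire, stood at 312, 153 and 186 against 790, 899 and 548 CPM (log2 fold change -1.77 ± 0.26). Irf4 (-0.71) was not called without WT-Control (adjusted p 0.141), WT-RANKL-Ab (0.0653) or Cd40-/- Control (0.137).

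Of 13 lineage regulators of mimetic cells tested, 5 were higher and 0 lower. Hnf4g, an intestinal nuclear receptor, stood at 39.8, 35.4 and 45.4 against 8.51, 6.83 and 10.1 CPM (log2 fold change 2.24 ± 0.17). Foxa1 (1.64) and the epithelial ETS factors Elf3 (1.53), Ets2 (1.05) and Ehf (0.65) were also higher, Ets2 not without WT-Control (adjusted p 0.112) or Cd40-/- Control (0.124) and Ehf not without them either (0.151 and 0.0549).

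Endocytosis and vesicle genes were higher, 11 of 19 with 0 lower, against a class that held no cell meeting the enterohepatic rule. The brush border protocadherin gene Cdhr5 stood at 141, 181 and 120 against 14.3, 24.3 and 13.9 CPM (log2 fold change 3.14 ± 0.15). Vil1 (2.28), which bundles actin in microvilli, Anxa1 (1.89), Lamp1 (1.44), the lysosomal membrane protein gene, Anxa2 (1.38) and the recycling GTPase gene Rab11a (1.10) were higher. The count was 6 of 18 tested without the members that met the enterohepatic rule, where the adjusted p of Vil1 was 0.138. Interferon-stimulated genes counted 6 higher of 16 and 0 lower, led by Irf7 (2.37) and Isg15 (1.58), but 2 with no library block and 2 without WT-Control.

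**Figure D4:**
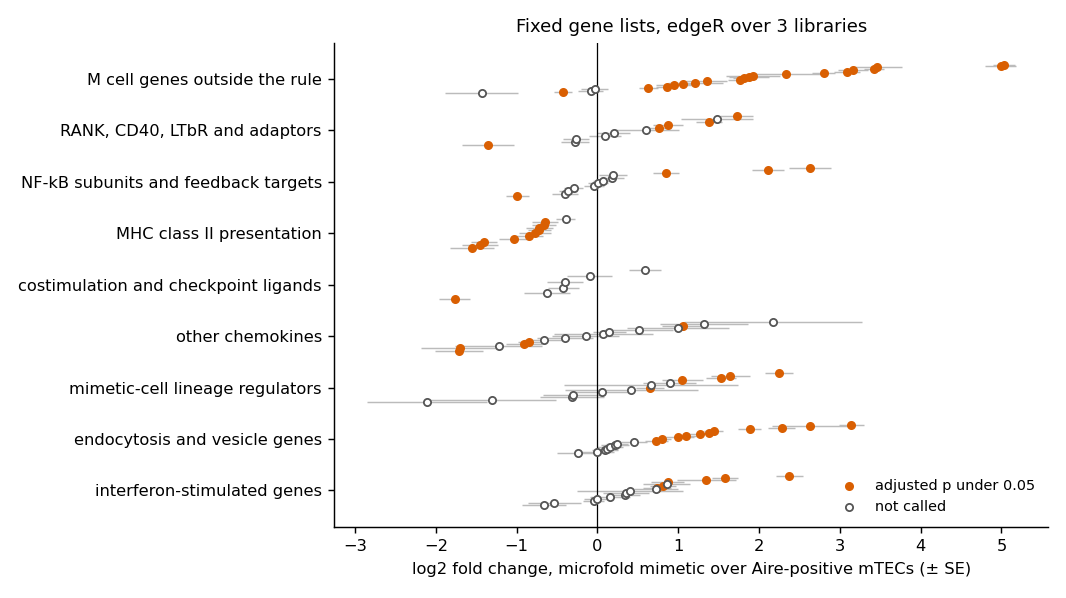
Log2 fold change (± SE, edgeR over 3 libraries) of members over Aire-positive mTECs for each tested gene of 9 lists; filled points have an adjusted p under 0.05. M cell genes (18 of 22 higher) and endocytosis genes (11 of 19 higher) lay to the right, MHC class II genes (10 of 11 lower) to the left.

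Among genes that chose neither class and stood at 50 CPM or more in the members of every library used, the 12 largest rises were Gm37800, Mmp7, Guca2b, Pglyrp1, Sox8, Cyp2a5, Spink5, Lgals4, Rnase1, Cr2, Hsd17b6 and Hepacam2, from 8.29 to 4.50 on the log2 scale. Cr2, the complement receptor better known from B cells, stood at 110, 111 and 378 against 5.09, 4.55 and 14.2 CPM (4.61 ± 0.16). Mmp7, a matrix protease of Paneth cells, stood at 197, 184 and 287 against 10.1, 0 and 6.61 CPM, and Gm37800, a gene model without a named product, at 117, 68.6 and 103 against 0.271, 0 and 0.493 CPM. Cr2 was highest in Cd40-/- Control in both classes. The largest falls included Crip3, Tulp2, 5930412G12Rik, Fabp6 and Gm36899, from -3.30 to -2.72, and the call of Fabp6 was lost without WT-RANKL-Ab (adjusted p 0.071) and without Cd40-/- Control (0.054).

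Of the 92 called genes named for this comparison, 11 lost the call without WT-RANKL-Ab and 18 without Cd40-/- Control. Of those that could still be tested, 21 of 90 lost it without WT-Control and 29 of 87 without members that met the enterohepatic rule. Of the M cell genes, 12 to 18 were higher under the alternatives tried.

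Against cells that met the enterohepatic rule but not the microfold rule, the M cell genes still stood out. Most members also met the enterohepatic rule, and the comparison class could hold cells that met a further mimetic rule. Of 12366 genes tested, 573 (4.63%) were higher and 350 (2.83%) lower, and the split was 371 higher and 437 lower when library totals replaced TMM scaling (edgeR's trimmed mean of M-values), which moved the median of all genes from -0.01 to -0.17. Of 22 M cell genes, 14 were higher and 0 lower (median 1.38). Sox8 had a log2 fold change of 4.81 ± 0.21 (edgeR adjusted p = 0.000347), with 4.31, 1.79 and 5.15 CPM in the enterohepatic class. Pglyrp1 stood at 537, 554 and 603 CPM there (3.38 ± 0.15), and Cr2 at 4.89, 1.79 and 11.3 CPM (4.98 ± 0.22).

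The RANKL receptors differed here too. Tnfrsf11b stood at 84.7, 68.1 and 96.3 CPM in the enterohepatic class (log2 fold change 2.19 ± 0.23, edgeR adjusted p = 0.00651), below the members in every library. Tnfrsf11a stood at 106, 125 and 123 CPM (0.89 ± 0.14, edgeR adjusted p = 0.0211), and its call was lost without WT-Control (0.0859) and without Cd40-/- Control (0.154). Among members without a UMI of another lineage the log2 fold change of Tnfrsf11a was 0.22 (adjusted p 0.754), while that of Tnfrsf11b was 1.88 (0.00415). Tnfrsf11b, which is not in the list of receptors and adaptors, kept its call without Cd40-/- Control (1.86, edgeR adjusted p 0.0140). Aire was lower in the members (407, 233 and 383 CPM in the enterohepatic class, -1.07 ± 0.19), but not without Cd40-/- Control (adjusted p 0.0708). Without Cd40-/- Control the counts of several lists went to 0, among them receptors and adaptors (3 higher of 11), MHC class II genes (4 lower of 11) and endocytosis genes (7 higher of 19, also 0 without WT-Control), and likewise Aire and its partners (3 lower of 7), lineage regulators (2 higher and 1 lower of 17) and interferon-stimulated genes (1 higher of 16).

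The largest rises after Gm37800 (7.90), Cr2 and Sox8 included Gucy1b2 (3.99), Mmp7 (3.36), Cfp (3.18), the properdin gene, and the trypsin gene Prss2 (3.14), whose reads may be shared with other trypsin genes. The largest falls were Calb2 (-3.38), Cytl1 (-3.18), Camp (-3.06), Reg1 (-2.58), Crip3 (-2.42) and Ang4 (-2.33). Reg1, an islet and gut regeneration gene, stood at 32.1, 22.1 and 22.7 CPM in the members and at 278, 100 and 126 CPM in the enterohepatic class. In this comparison 58 named genes were called. Of the 57 that could still be tested, 31 lost the call without Cd40-/- Control, and 18 of 57 lost it without WT-Control.

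Of the mimetic types whose shares are given above, only thymic tuft cells were not lower with the antibody in wild type. Against them, 2549 (21.3%) of 11989 genes were higher and 2077 (17.3%) lower in the members. With library totals in place of TMM scaling the split was 1862 higher and 3877 lower and the median of all genes moved from -0.03 to -0.36. Of the lists of mTEC maturation, 11 of 11 MHC class II genes, 6 of 6 costimulatory ligands, 10 of 11 receptors and adaptors and 9 of 12 NF-kB genes were higher in the members and 0 lower, and of Aire and its partners 5 of 7 were higher and 1 was lower. Among members without a UMI of another lineage, 6 of 11 MHC class II genes were higher (median 1.17 instead of 2.22), 5 of 9 receptors and adaptors, 7 of 12 NF-kB genes and 0 of 7 Aire and partner genes. M cell genes counted 21 higher of 22.

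Tnfrsf11a stood at 47.9, 34.8 and 47.3 CPM in tuft cells (log2 fold change of the members 2.49 ± 0.15, edgeR adjusted p = 2.34e-05), and Tnfrsf11b at 11.2, 1.62 and 9.57 CPM (5.92 ± 0.27). Relb, the non-canonical NF-kB subunit, stood at 56.6, 38.8 and 52.9 CPM (2.37 ± 0.15), and H2-Aa at 2159, 961 and 1720 CPM (2.40 ± 0.14). The receptor for RANKL, its decoy and a downstream subunit were all lower in the tuft cells in 3 of 3 libraries. Whether these levels bear on the share of tuft cells was not tested. Sox8 had 16.2, 44.3 and 14.1 CPM in tuft cells (2.66 ± 0.35, edgeR adjusted p = 0.000771).

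The largest falls were tuft cell genes, such as the taste receptor gene Tas2r105 (0.263, 0 and 0 CPM in the members against 53.7, 80.1 and 76.0 CPM) and its G protein gene Gnat3 (log2 fold change -7.22). The choice of tuft cells by other tuft genes favours such falls. The largest rises were 1700016F12Rik (8.90), Csn3 (8.30), Prss2 (7.28), Cr2 (7.15) and Prg2 (6.74). Elf3 (-1.15) and Ehf (-2.38), both higher in members than in Aire-positive mTECs, were lower than in tuft cells. Markers of other lineages moved with this comparison, with 6 of 6 myeloid and 6 of 8 thymocyte markers higher and 1 thymocyte marker lower. Lyz2 stood at 773, 538 and 717 CPM in members and at 173, 29.1 and 117 CPM in tuft cells, and the part of such cells' RNA in the result was not tested.

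Gp2 marks mature M cells in the gut, and not all members held it. After thinning to 2000 UMIs, Gp2 was seen in 125 of 346 WT-Control members (36.1%, 31.1 to 41.4%), 19 of 54 WT-RANKL-Ab members (35.2%, 22.7 to 49.4%), 92 of 201 Cd40-/- Control members (45.8%, 38.7 to 52.9%) and 0 of 1 Cd40-/- RANKL-Ab member, with 51, 18, 58 and 0 shallower members left out. Median depths with and without Gp2 were 8041 and 9841, 6602 and 7739, and 7518.5 and 7144 UMIs. The intervals of the 3 larger libraries overlapped.

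Members with Gp2 differed from members without it in 48 higher (0.635%) and 37 lower (0.489%) of 7562 genes tested. Gp2 is itself a rule gene, so a cell with it needed fewer of the other rule genes to be a member, and the split is not free of the rule. Genes known from tuft cells were higher: Alox5ap (127, 377 and 75.7 against 8.62, 0 and 15.8 CPM, log2 fold change 3.80 ± 0.54), Rgs13 (3.72), Avil (2.56), Trpm5 (2.48) and Dclk1 (75.1, 175 and 77.1 against 12.1, 42.5 and 23.6 CPM, 2.22 ± 0.27). Hepacam2, a goblet and tuft cell gene, stood at 341, 391 and 273 against 58.8, 103 and 70.9 CPM (2.22 ± 0.20, edgeR adjusted p = 0.00701). Tuft rule genes counted 3 higher of 6, and 0 of the 2 that could be tested once members that also met the tuft rule were left out, and Dclk1 then stood at -0.47.

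Of the M cell list, 1 of 21 genes was higher, the phospholipid-binding Anxa5 (2287, 1650 and 3628 against 1051, 1021 and 1148 CPM, log2 fold change 1.21 ± 0.21). Sox8 stood at 198, 53.9 and 203 against 42.7, 103 and 87.8 CPM (1.29 ± 0.45, edgeR adjusted p = 0.226), higher with Gp2 in 2 of 3 libraries. Chemokines were lower, 5 of 14 and 0 higher, with a median of -1.46. Ccl5 stood at 288, 26.9 and 123 CPM with Gp2 and at 2490, 1188 and 595 CPM without (-3.10 ± 0.41, edgeR adjusted p = 0.0210), and Cxcl12 (-2.57), Cxcl1 (-2.29), Cxcl2 (-1.78) and Ccl19 (-1.41) were the others. Every one of these was lower in 3 of 3 libraries.

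This split was the least stable comparison. The counts were 3 higher and 2 lower without WT-Control, 241 and 193 without WT-RANKL-Ab and 84 and 69 without Cd40-/- Control, and 2 of 26 named genes that could be tested kept the call without WT-Control.

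**Figure D5:**
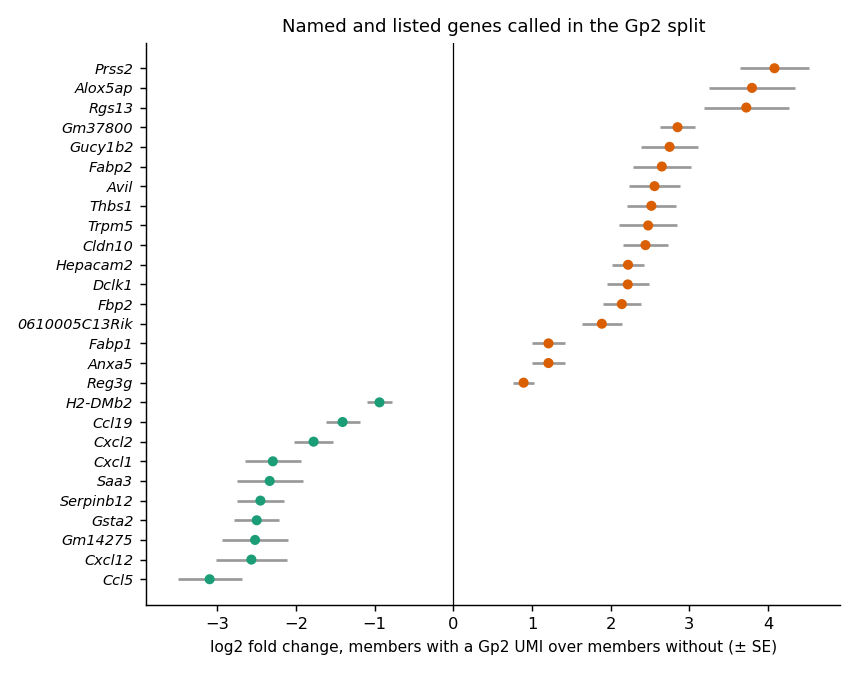
Log2 fold change (± SE, edgeR over 3 libraries, cells thinned to 2000 UMIs to assign Gp2) for the 27 named or listed genes called between members with and without a Gp2 UMI. Tuft cell genes such as Alox5ap (3.80) and Dclk1 (2.22) stood higher with Gp2, chemokines such as Ccl5 (-3.10) lower. Without members that also met the tuft rule, Dclk1 stood at -0.47 and Alox5ap could not be tested.

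The members that remained were then compared between conditions. WT-RANKL-Ab and Cd40-/- Control were each set against WT-Control, which both comparisons share, by the ratio of summed UMIs with an exact 95% interval of counting error and no test. In WT-RANKL-Ab, 146 (1.94%) of 7541 genes stood at least 2-fold higher and 451 (5.98%) at least 2-fold lower. In Cd40-/- Control, 113 (1.32%) of 8593 were higher and 240 (2.79%) lower. The M cell genes were near the middle of all genes, with medians of 0.01 in WT-RANKL-Ab (0 of 21 higher and 2 lower by 2-fold) and 0.24 in Cd40-/- Control (1 higher, 0 lower) against 0.05 and 0.06 for all genes.

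Of the RANKL system, Tnfrsf11b was lower in WT-RANKL-Ab members, with a log2 ratio of -1.15 (-1.50 to -0.81), and the ratio in the Aire-positive class was -1.04. It stood slightly higher in Cd40-/- Control (0.51, 0.38 to 0.63). Cd40 had a ratio of -1.82 (-2.67 to -1.08) in WT-RANKL-Ab members and -0.43 in the Aire-positive class, and Aire one of -1.73 (-2.30 to -1.20) in the members. The Aire-positive class was chosen by its Aire UMIs and gives no comparison for that gene. The ratios of Sox8 were 0.16 (-0.31 to 0.60) with the antibody and 0.66 (0.41 to 0.90) without Cd40.

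Of the other chemokines in WT-RANKL-Ab members, 2 of 12 stood at least 2-fold higher and 5 lower, and in Cd40-/- Control 2 of 14 higher and 4 lower. Myeloid markers moved with them in WT-RANKL-Ab, where 3 of 5 measured stood at least 2-fold lower (median log2 ratio -1.82 with 10 CPM added) and the macrophage genes C1qa, C1qb and C1qc had 0 UMIs, beside 50.3, 60.3 and 25.3 CPM in WT-Control. Lyz2, a further myeloid gene, went from 773 CPM without to 538 CPM with the antibody in wild type. Their part in the chemokine levels was not tested. Ccl5 stood at 1768, 815 and 371 CPM (log2 ratio to WT-Control -1.12, -1.27 to -0.97, with the antibody and -2.25, -2.37 to -2.13, without Cd40), while in the Aire-positive class it stood at 609, 2729 and 307 CPM, with ratios of 2.16 and -0.99. Ccl5 thus moved in opposite directions with the antibody in the 2 classes, a difference that was not tested. The intervals take the UMIs of a cell as independent, and the Aire-positive cells that held Ccl5 were not counted. Ccl27a, a skin-type chemokine gene with near-identical copies, was lower in both libraries (-2.88 and -1.40).

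The dendritic-cell-attracting chemokines Ccl22 and Ccl17 stood higher in WT-RANKL-Ab members, at 370 against 97.2 CPM (1.93, 1.66 to 2.20) and 190 against 37.9 CPM (2.33, 1.93 to 2.72). A single cell held 66.5% of the Ccl22 and 69.8% of the Ccl17 UMIs of that library. The ratios in the Aire-positive class were 1.97 and 2.48. In Cd40-/- Control, Ccl22 was lower (-2.06) and Cxcl12, a stromal chemokine gene, stood at 47.8 CPM against 10.0 CPM (2.26, 1.68 to 2.85, against 2.02 in the Aire-positive class).

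The NF-kB feedback genes Nfkbiz and Tnfaip3 stood higher in Cd40-/- Control members, with log2 ratios of 1.48 (1.06 to 1.91) and 1.26 (0.87 to 1.65). Ratios in the Aire-positive class were 0.97 and 0.40. Umod stood at 53.8 CPM without Cd40 and 12.6 CPM with it (2.09, 1.57 to 2.63), the 1 M cell gene past 2-fold there. Of the 11 MHC class II genes, 0 moved by 2-fold in either library, and H2-Aa had ratios of -0.48 and -0.11.

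The genes with the highest ratios had much of their UMIs in few cells. In WT-RANKL-Ab they were Bpifa1, Clps, Upk3a, Cyp2f2 and Dnase1, genes of airway, pancreas, bladder and kidney. Bpifa1, an airway secretory gene, stood at 97.7 and 1543 CPM, but 1 cell held 494 of its 697 UMIs, and all 158 UMIs of Clps, the colipase gene, were in 1 cell. With 10 CPM added, the log2 ratio of Bpifa1 was 3.85 with that cell, 2.12 without it and -2.61 in members with at least 5 rule genes, and that of Cyp2f2, another airway gene, 3.09 and 2.70. In Cd40-/- Control they were Spink12, Cxcl5, Prss16, Trbc2 and Prss1, and 1 cell held 67.4% of the Spink12 UMIs. Trbc2, a T cell receptor gene, stood at 19.5 and 129 CPM, and 2 of 4 thymocyte markers measured (Lck and Trbc1) stood at least 2-fold higher there.

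The genes with the lowest ratios in WT-RANKL-Ab members had 0 UMIs there: Tff3, S100a9, Hbb-y, Nts and Pyy. Against a limit of 3 UMIs (6.64 CPM), the goblet cell gene Tff3 (362 CPM in WT-Control, in 64 cells) stood 54.6-fold lower and S100a9 (351 CPM, in 68 cells) 52.8-fold. The gut peptide genes Nts (193 CPM) and Pyy (162 CPM) stood 29.1-fold and 24.4-fold lower, and the embryonic globin gene Hbb-y (205 CPM, in 12 cells) 30.9-fold. These folds rest on UMI counts and are no lower bound over cells, because the UMIs of a cell are not independent. WT-RANKL-Ab had 72 members and 451677 UMIs in all, so genes seen in a small share of members could be missed.

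The acute-phase gene Saa3, an enterohepatic rule gene, stood at 1789, 111 and 1787 CPM, a log2 ratio of -4.01 (-4.45 to -3.61) in WT-RANKL-Ab. Cells that met the enterohepatic rule were kept out of the Aire-positive class, so its Saa3 ratio (0.36) gives no comparison. Of the members, 67.3% met that rule in WT-Control and 43.1% in WT-RANKL-Ab, and the part of this overlap in the Saa3 level was not tested. Krt5, a basal keratin, stood at 138, 414 and 126 CPM, a log2 ratio of 1.59 (1.34 to 1.83) with the antibody. The lowest ratios in Cd40-/- Control were those of Cd40, Hbb-y, Reg3b (748 to 77.7 CPM), Hbb-bt and Fabp6 (204 to 14.9 CPM). Hbb-bt had 0 UMIs there, 42.6-fold lower against a limit of 3 UMIs (1.79 CPM), but 95.5% of its UMIs in WT-Control were in 1 cell. Reads of the globin and Reg3 genes may be shared among close copies.

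The single member in Cd40-/- RANKL-Ab held 11786 UMIs and 6 of the 7 rule genes. It had 18 UMIs of Ccl20, 12 of Spib, 25 of Ccl9, 17 of Ccl6 and 142 of Serpinb6a, and 0 of Gp2. The cell also met the enterohepatic rule, and its depth was above the median of its library.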

How the data were processed

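Droplet-based 3' single-cell RNA-seq had been run on 1 library per condition. The UMI counts were deposited by the authors as filtered gene-by-cell matrices made with Cell Ranger on mm10; the labels name version 5.1, the file headers another, and the labels and the study's methods name different kit versions. No further normalization had been applied. The members and lists were chosen with earlier results of these data known.

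Cells under 200 genes or over 25% mitochondrial UMIs were dropped, classes were assigned by the stated rules, and shares were given exact 95% intervals. UMIs were summed per library and class and tested with edgeR 4.0.16 (R 4.3.3; TMM scaling, edgeR's filter for low counts, quasi-likelihood F test, library as a block, Benjamini-Hochberg adjustment at 0.05). The block pairs classes from the same library, that is, the same pooled mice. Genes of either class's rule stayed in the fit but were never called, and were left out of the counts. Named genes were the 12 higher and 6 lower genes with the largest change, of those called, changed alike in every library used and at 50 CPM or more where higher, and list members that were called or define a list; between conditions, the 5 highest and 5 lowest ratios with 10 CPM added and at least 50 UMIs. Alternatives included DESeq2 1.42.0. Some genes that entered the rules or met the rule for named genes are not reported here. No doublet caller was run; members meeting a second rule were instead left out in alternatives.

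On simulated counts the test recovered 41% of 2-fold and 85% of 4-fold changes against Aire-positive mTECs (12170 genes), 44 and 91% against the enterohepatic class (12380), 79 and 100% against tuft cells (12000) and 57 and 100% in the Gp2 split (7569). The changed genes were a small part of those simulated and were drawn only from genes with high counts, so recovery at low counts was not measured. Of the genes simulated without a change, 0.107 to 0.203% were called. Intervals and limits cover counting error only.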

Additional observations from a re-analysis of the deposited data

How the results depend on the processing

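The direction of the members' share against WT-Control was kept under every alternative of the rule, depth or denominator; in WT-RANKL-Ab the log2 ratio was -2.37 with cells thinned to 3000 UMIs. Using only members without a UMI of another lineage gave -1.27 (WT-RANKL-Ab, -2.01 to -0.58) and -0.10 (Cd40-/- Control, -0.60 to 0.40). Alternatives with library totals, at least 5 rule genes in the tests, cells with thymocyte markers or members of second rules left out of the tests, the top cell left out, or cTECs out of the denominator were chosen after seeing the data. Against Aire-positive mTECs, genes higher numbered 943 and lower 1023 without such UMIs, and 488 and 384 without members meeting the enterohepatic rule. With no low-count filter 2546 were lower, and leaving out 1 library gave 952 to 1996 higher and 805 to 1563 lower. Against the enterohepatic class, higher and lower genes numbered 935 and 1629 with no filter, 176 to 641 and 98 to 315 with 1 library left out; 371 were higher with library totals, 347 without other-lineage UMIs, and 811 lower with at least 5 rule genes. Against tuft cells, 1041 and 938 passed without other-lineage UMIs, 1363 and 1085 without enterohepatic-rule members; lower genes numbered 1369 by DESeq2's Wald test, 3877 with library totals and 1165 to 2230 with 1 library left out. In the Gp2 split the counts were 324 and 396 with no filter, 3 to 241 and 2 to 193 with 1 library left out, 22 and 22 without other-lineage UMIs, 9 and 1 without enterohepatic-rule members, and 19 and 14 with at least 5 rule genes, and 76 were higher without tuft-rule members. Between conditions, genes 2-fold higher in WT-RANKL-Ab numbered 85 with TMM factors, 230 by the mean over cells and 356 with 1 CPM added (719 lower), and in Cd40-/- Control 363 were higher and 473 lower with 1 CPM. The cause of these changes was not tested, except where fewer cells, genes or libraries entered the test.

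Without the library as a replicate block, which drops the pairing of classes within a library, 1107 genes were higher and 674 lower against Aire-positive mTECs, 192 and 38 against the enterohepatic class, and 1 and 1 in the Gp2 split.

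Genes that reversed did so against tuft cells, in the Gp2 split or between conditions. Against tuft cells and without other-lineage UMIs, Ccl27a was at -0.74, Usp18 at -0.037, Krtdap at -0.85, Irf7 at 0.084, H2-Ob at -0.43, Ifit1 at -0.045 and Lyz2, itself one of the markers removed, at -10.98. Without enterohepatic-rule members, Vil1 was at -0.20, Cxcl1 at -0.080, Cldn3 at -0.036, Ltbr at -0.20, Saa3 at -0.27, Cdhr5 at -0.24 and Myo1a at -0.34, and with at least 5 rule genes Cxcl1 was at -0.52. In the Gp2 split, Reg3g was at -0.19 without other-lineage UMIs, Fabp1 at -0.053 without enterohepatic-rule members and Dclk1 at -0.47 without tuft-rule members. In WT-RANKL-Ab, Bpifa1 was at -2.61 and Upk3a at -1.57 with at least 5 rule genes, and Clps at -1.61 without the cell with most of its UMIs. With 1 library per condition and 72 members in WT-RANKL-Ab, counting error limits the ratios of rarer genes.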
